A study of Mus musculus with 12 samples.

Results

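Messenger RNA was sequenced from white adipose tissue (WAT) and from cultured adipocytes of mice that lack Xap5 in mature fat cells, and 10 genes known to hold back the formation of adipocytes are described here. They are Dlk1, Wnt10b, Wnt5a, Tgfb1, Smad3, Hes1, Sox9, Gata2, Gata3 and Klf2, chosen by symbol. All 10 are listed among the 26639 features of the WAT count table and among the 22851 features of the culture table. Xap5 is a nuclear protein encoded by Fam50a. In the conditional knockout (cKO) the gene was deleted by a Cre recombinase driven by the adiponectin promoter, which is active in mature adipocytes, so that the other cells of the tissue keep the gene. The 4 groups, of 3 libraries each, were WAT of cKO mice at postnatal day 42, WAT of wild-type (WT) mice of the same age, cultured adipocytes of knockout (KO) genotype on day 8 of adipogenic induction, and WT cultures on that day. The cultures were grown from pre-adipocytes of the subcutaneous white fat of newborn cKO or WT mice and were induced with insulin, dexamethasone and IBMX, followed by insulin alone. Strain and sex are not given in the labels, nor whether the replicates of a group are separate animals or separate cultures. The p-values therefore measure only the spread between these libraries, which may be technical.

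Fat cells arise from fibroblast-like progenitors, which switch on C/EBPbeta and C/EBPdelta and then PPARgamma and C/EBPalpha. Secreted WNT and TGF-beta proteins, the membrane protein encoded by Dlk1 (also called Pref-1) and nuclear factors such as GATA2, GATA3 and KLF2 are known to block this switch in cultured progenitors, and their levels usually drop as progenitors mature. TGF-beta acts through SMAD3, a transcription factor that binds C/EBP proteins. SOX9 is likewise known to keep progenitors undifferentiated, as is HES1, a repressor induced by Notch receptors.

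The promoters of Tgfb1, Smad3 and Klf2 are shown because these genes were called changed in WAT or culture without resting on the tissue library, cKO replicate 3, that is set apart below. Each is printed 5′ to 3′ on the gene's own strand, from 250 bases before the annotated start to 50 bases after it, with CG pairs in capitals. The sequences are from RefSeq on GRCm38.p6. The Tgfb1 window is chr7:25686752-25687051 on the plus strand, the Smad3 window is chr9:63757945-63758244 on the minus strand, and the Klf2 window is chr8:72318812-72319111 on the plus strand.
Tgfb1: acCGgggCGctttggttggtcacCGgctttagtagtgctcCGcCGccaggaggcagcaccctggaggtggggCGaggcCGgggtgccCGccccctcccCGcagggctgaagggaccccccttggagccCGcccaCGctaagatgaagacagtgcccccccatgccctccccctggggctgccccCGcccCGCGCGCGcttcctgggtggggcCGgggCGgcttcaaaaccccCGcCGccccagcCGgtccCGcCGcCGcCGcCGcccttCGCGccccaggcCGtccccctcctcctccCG
Smad3: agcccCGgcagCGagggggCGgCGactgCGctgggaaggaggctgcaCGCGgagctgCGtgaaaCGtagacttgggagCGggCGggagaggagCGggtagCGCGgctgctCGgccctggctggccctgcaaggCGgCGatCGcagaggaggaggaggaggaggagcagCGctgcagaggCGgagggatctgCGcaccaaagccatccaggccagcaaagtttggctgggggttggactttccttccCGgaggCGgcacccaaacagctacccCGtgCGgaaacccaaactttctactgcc
Klf2: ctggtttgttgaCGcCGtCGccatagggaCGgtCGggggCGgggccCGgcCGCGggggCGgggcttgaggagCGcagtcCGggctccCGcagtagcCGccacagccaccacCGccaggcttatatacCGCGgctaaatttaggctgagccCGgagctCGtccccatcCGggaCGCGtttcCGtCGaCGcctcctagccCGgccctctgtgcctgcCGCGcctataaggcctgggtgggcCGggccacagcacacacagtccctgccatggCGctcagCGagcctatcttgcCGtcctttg
All 3 are rich in CG pairs. The Tgfb1 window holds 30 of them at 77.0% G and C, the Smad3 window 25 at 67.7%, and the Klf2 window 32 at 69.3%, against a median of 7 pairs and 52.7% over 32851 promoter windows of the same length. Of the 10 genes, 7 matched the promoter table by symbol, Gata2 with 2 windows. Their CG counts ran from 9 in Dlk1 to 32 in Klf2 and in a window of Gata2. The 8 windows were searched on both strands for 4 short motifs. With 1 match in all, no matches overlapped. The letters GTGGGAA, the core bound by RBPJ, were in none of them and in 6.38% of all windows. The GATA letters AGATAA were in none and in 11.2% of all windows, and the letters TATAAA of the TATA box were in none and in 13.6%. The SMAD letters CAGACA matched in 1 of the 8, the Gata3 window, at base 254 counted from its 5′ end, and in 21.0% of all windows. A match is a description of the letters, not a binding site.

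Total counts ran from 33132906 to 33997204 in cKO WAT, from 28844370 to 30704234 in WT WAT, from 10863158 to 21773610 in KO cultures and from 11601138 to 12401278 in WT cultures. Levels below are in CPM, read counts relative to the library's total, with totals scaled by TMM, the trimmed mean of log ratios between libraries. Changes are log2 fold changes of knockout over WT from the quasi-likelihood test of edgeR, called at a Benjamini-Hochberg adjusted p under 0.05 over all genes tested. In WAT, TMM factors were 1.23 to 1.30 in cKO and 0.781 to 0.796 in WT, and scaling by library size only raised the median change of all genes by 0.68, from 0.12 to 0.80. Directions are therefore relative to TMM, and turns under library size only are named. Mature adipocyte markers, as a check of the labels, summed to 11590 to 23928 CPM in cKO WAT, 36647 to 38358 in WT WAT, 25583 to 29519 in KO cultures and 18485 to 19956 in WT cultures. Fam50a, the targeted gene, was at 23.3, 16.8 and 28.9 CPM in cKO and 35.3, 32.5 and 36.5 CPM in WT replicates 1 to 3 of WAT (-0.60, SE 0.20, adjusted p = 0.0395, but 0.09 by library size only). In culture it was at 46.2, 42.9 and 41.1 CPM in KO and 57.9, 52.0 and 45.2 CPM in WT (-0.26, SE 0.12, adjusted p = 0.134). Reads from exons outside the deleted stretch, and from cells that keep the gene, are part of such a count. Their part was not tested.

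cKO replicate 3 stood apart from the other WAT libraries in 3 of the 10 genes. It held 95.7% of the summed Gata3 CPM of the cKO group, 91.6% of Sox9 and 62.7% of Wnt5a. The same library carried 1105 CPM of 10 markers of mammary epithelium, against 6.21 and 5.87 CPM in cKO replicates 1 and 2 and 56.1, 14.2 and 4.13 CPM in WT replicates 1 to 3, a 183-fold excess over the mean of the other cKO libraries. Krt19 and Krt18, keratins of simple epithelium and the most abundant of these markers, were at 267 and 222 CPM in it and at most 16.2 and 11.1 CPM in any other WAT library, and Krt18 had 0 reads in cKO replicate 1. None of the 7 epithelial markers tested was called, and none was at 0 in all libraries of a group. Gata3 and Sox9 are themselves known from mammary epithelium. The part of epithelial RNA in their values was not tested. Changes of the 10 genes that rest on this library are given with and without it.

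**Figure D1:**
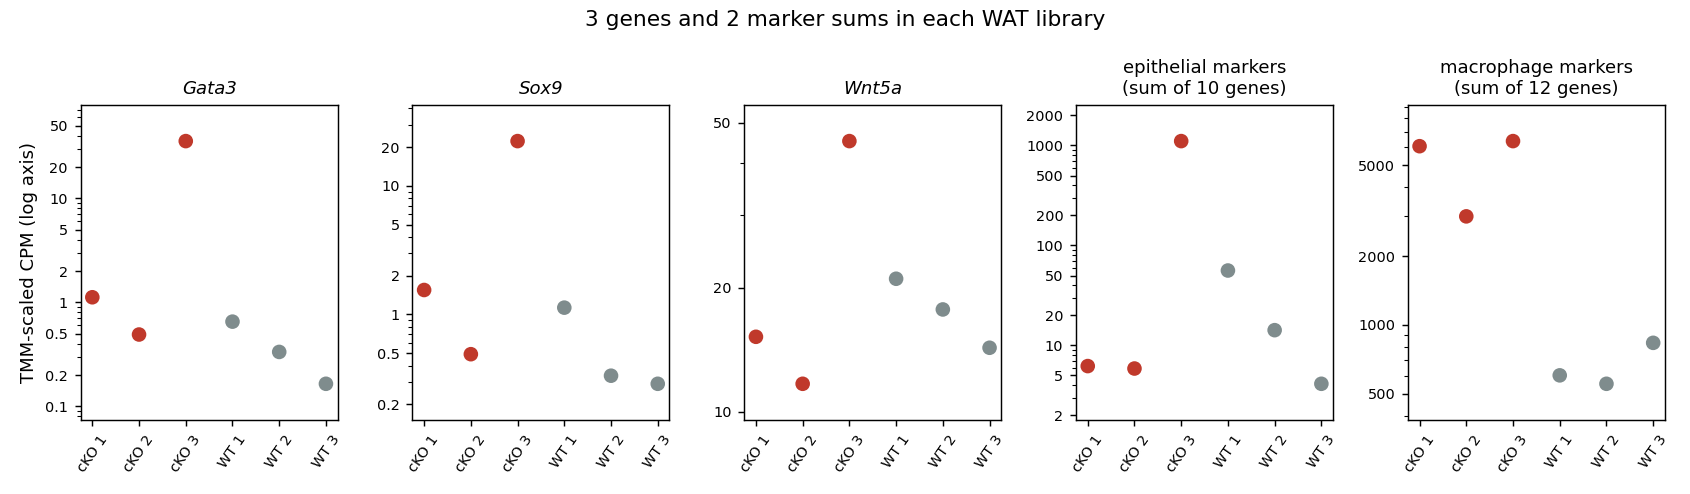
TMM-scaled CPM on log axes of Gata3, Sox9 and Wnt5a and of the summed epithelial and macrophage markers in each WAT library, cKO replicates 1 to 3 left of WT replicates 1 to 3; each point is 1 library. cKO replicate 3 is far above the other 5 libraries for Gata3, Sox9, Wnt5a and the epithelial sum (1105 CPM), whereas all 3 cKO libraries lie above WT for the macrophage sum.

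In WAT, 3 of the 10 genes changed in cKO: Tgfb1 and Gata3 rose and Klf2 fell. Over all 16293 genes tested, 52.4% changed, 28.2% upward and 24.2% downward, so a count of 3 in 10 is below the share of all genes. Without cKO replicate 3 the count was 2, Tgfb1 and Klf2, where 23.1% of all genes were higher and 21.7% lower. By library size only it was 7, all of them higher, where 54.2% of all genes were higher and 8.76% lower, so that count too is near the share of all genes. With TMM and all libraries kept, cKO replicate 3 among them, the median change of the 10 was 0.52, beside 0.12 for all genes. In culture, 8 of the 10 had enough counts to be tested and 2 changed, Tgfb1 and Smad3, both lower in KO. That share stands beside 19.5% of 12587 genes changed, 8.94% upward and 10.6% downward, and the median of the 8 was -0.34, beside -0.02 for all genes.

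**Figure D2:**
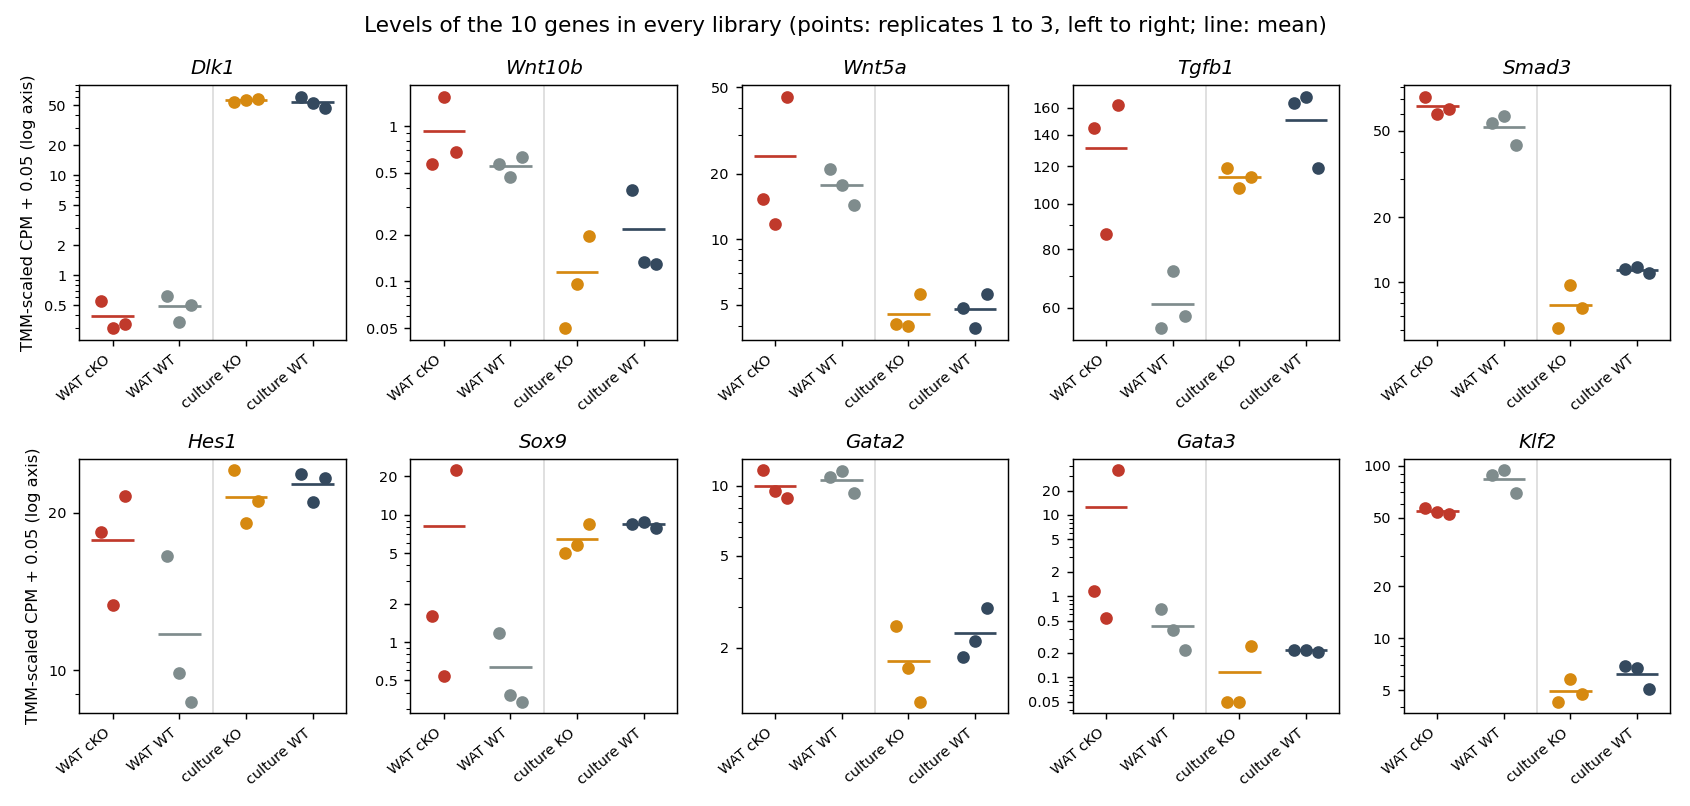
TMM-scaled CPM plus 0.05 on log axes for the 10 genes in all 12 libraries, each group with replicates 1 to 3 from left to right and its mean as a line. Tgfb1 lies above WT in all 3 cKO tissues and below WT in all 3 KO cultures, Klf2 lies below WT in all 3 cKO tissues, and Dlk1 is at 0.246 to 0.566 CPM in WAT and at 47.0 to 61.3 CPM in culture.

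Tgfb1, the ligand of the TGF-beta pathway, lies on chromosome 7 from 25687002 to 25705077 (GRCm38). It was at 145, 86.1 and 162 CPM in cKO replicates 1 to 3, against 54.3, 71.9 and 57.6 CPM in the WT replicates of WAT. All 3 cKO libraries were above all 3 WT libraries, a pattern shared with 35.1% of all genes tested, and cKO replicate 2 came closest to WT. The log2 fold change was 1.10 (SE 0.25, 95% interval 0.52 to 1.68, adjusted p = 0.00874), 2.14-fold. It was 0.90 without cKO replicate 3 (adjusted p = 0.0208) and 1.79 by library size only, and only a required minimum of a 2-fold change ended the call (adjusted p = 0.487). Macrophages are a known source of TGF-beta, and 12 macrophage markers, 12 of 12 tested of them higher in cKO, summed to 2983 to 6369 CPM in cKO and 552 to 834 CPM in WT, with no marker at 0. Their part in the Tgfb1 rise was not tested. In such bulk samples more cells of a type and more RNA per cell cannot be told apart.

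In culture the same gene was at 119, 108 and 114 CPM in KO, against 164, 169 and 119 CPM in WT replicates 1 to 3. The KO libraries were below WT, as for 18.8% of genes tested, but by little: KO replicate 1 and WT replicate 3 share the rounded value of 119. Tgfb1 fell by 0.41 on the log2 scale (SE 0.12, adjusted p = 0.0227). That call was lost without WT replicate 1 (-0.34, adjusted p = 0.102), WT replicate 2 (-0.30, adjusted p = 0.193) or KO replicate 2 (-0.37, adjusted p = 0.100), in 1 fit over all 4 groups (-0.40, adjusted p = 0.309) and under the 2-fold minimum. A change of this size, below 2-fold, could not pass that minimum. Macrophage markers were measurable in these cultures too, at 3319 to 3807 CPM in KO and 4648 to 5230 CPM in WT, with 6 of 12 lower, none higher and none at 0. Their part in this fall was not tested either.

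Smad3, which carries the TGF-beta signal to the nucleus (chromosome 9, 63646766 to 63757994), was at 72.0, 59.8 and 62.9 CPM in cKO and 54.3, 58.4 and 42.9 CPM in WT WAT. The cKO libraries were all above WT, although cKO replicate 2 and WT replicate 2 were close, and the change of 0.32 did not pass (SE 0.15, 95% interval -0.04 to 0.68, adjusted p = 0.114). By library size only it did, at 1.01 (adjusted p = 0.00135). In culture Smad3 was at 6.10, 9.71 and 7.60 CPM in KO, against 11.5, 11.7 and 11 CPM in WT. KO cultures were lower, with more spread than WT, and Smad3 fell by 0.52 on the log2 scale (SE 0.18, adjusted p = 0.0438). The call did not hold in 10 of 18 alternatives, such as DESeq2 (adjusted p = 0.0517) and the removal of a trend with transcript length and GC content (-0.30, adjusted p = 0.185). All 18 left Smad3 below WT, by 0.30 to 0.72 on the log2 scale. Among the 18, summed numbered copies and omitted unnamed loci repeat the main fit, since culture had 0 of each.

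Klf2 encodes a zinc finger factor that represses the Pparg promoter and is also known from endothelial cells under flow. It lies on chromosome 8 from 72319062 to 72321654. Its level was 57.1, 53.8 and 52.6 CPM in cKO and 87.9, 94.0 and 69.4 CPM in WT WAT. The 3 cKO values lay close together and below every WT value, as for 29.3% of all genes, and the log2 fold change was -0.62 (SE 0.14, adjusted p = 0.00961). The direction hung on the scaling: library size only gave 0.06 (adjusted p = 0.723), and removal of the length and GC trend gave -0.20 (adjusted p = 0.261). Endothelial markers, of which 6 of 10 fell, 1 rose and none was at 0, summed to 622 to 942 CPM in cKO and 1143 to 1590 CPM in WT. Their part in the Klf2 value was not tested. In culture Klf2 was at 4.22, 5.71 and 4.68 CPM in KO and 6.84, 6.64 and 4.99 CPM in WT, with overlapping groups (-0.32, SE 0.21, 95% interval -0.75 to 0.12, adjusted p = 0.301).

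Dlk1 encodes a membrane protein of pre-adipocytes that is shed and blocks their differentiation (chromosome 12, 109452485 to 109463336). In WAT it was barely read, at 0.500, 0.246 and 0.272 CPM in cKO and 0.566, 0.292 and 0.455 CPM in WT, or 21, 10 and 12 counts in cKO and 13, 7 and 11 counts in WT. These values overlapped, and the interval of the change, -1.64 to 0.91 around -0.36 (adjusted p = 0.598), allows a fall or a rise of this low level. The WAT table also lists a copy named Dlk1-2 with 26, 18 and 12 counts in cKO and 19, 7 and 12 in WT, so reads may have been split between both rows. Cultures gave far more: 54.5, 56.9 and 57.5 CPM in KO, against 61.3, 52.6 and 47.0 CPM in WT. There the groups overlapped and the change was 0.07 (SE 0.12, 95% interval -0.17 to 0.32, adjusted p = 0.711). After removal of that trend with length and GC content Dlk1 was called higher, at 0.28 (adjusted p = 0.0203), and without WT replicate 3 its change was -0.01.

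Wnt10b, a ligand of the beta-catenin branch and a classical brake on fat cell formation (chromosome 15, 98770712 to 98778206), was at 0.524, 1.5 and 0.634 CPM in cKO and 0.523, 0.417 and 0.579 CPM in WT WAT. Only cKO replicate 2 stood clearly above the others, and the change of 0.80 did not pass (SE 0.54, 95% interval -0.48 to 2.08, adjusted p = 0.249). It was 0.17 without that library (adjusted p = 0.818), and by library size only Wnt10b was called higher, at 1.46 (adjusted p = 0.0461). In culture it had 0, 1 and 3 counts in KO and 4, 1 and 1 in WT, too few to test. Wnt5a, which signals through ROR receptors largely without beta-catenin (chromosome 14, 28504543 to 28527448), was at 15.2, 11.7 and 45.2 CPM in cKO and 21.0, 17.7 and 14.3 CPM in WT WAT. The direction rested on cKO replicate 3: with it the change was 0.45 (SE 0.49, adjusted p = 0.468), without it -0.40 (adjusted p = 0.186). Cultured cells held 4.03, 3.95 and 5.55 CPM in KO and 4.81, 3.86 and 5.54 CPM in WT, overlapping values that differed by -0.06 (95% interval -0.53 to 0.41, adjusted p = 0.876).

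Hes1, a direct Notch target (chromosome 16, 30065357 to 30067796), was at 18.3, 13.3 and 21.5 CPM in cKO and 16.5, 9.81 and 8.64 CPM in WT WAT. WT replicate 1 lay among the cKO values, and the change of 0.60 did not pass (SE 0.30, 95% interval -0.09 to 1.30, adjusted p = 0.123). Without that library it was 0.93 (adjusted p = 0.0294), after removal of the length and GC trend 0.98 (adjusted p = 0.0477) and by library size only 1.29 (adjusted p = 0.00922). Cultures held 24.1, 19.1 and 21.0 CPM in KO and 23.7, 20.9 and 23.3 CPM in WT, overlapping values with a change of -0.09 (95% interval -0.37 to 0.20, adjusted p = 0.703).

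Gata2 and Gata3 encode zinc finger factors that bind C/EBP proteins and repress Pparg. Gata2 (chromosome 6, 88193891 to 88207032) was at 11.6, 9.48 and 8.79 CPM in cKO and 10.9, 11.5 and 9.22 CPM in WT WAT, with overlapping groups and a change of -0.08 (SE 0.19, 95% interval -0.53 to 0.37, adjusted p = 0.754). By library size only Gata2 was called higher, at 0.60 (adjusted p = 0.0283). Gata2 is also known from mast cells, of whose 8 markers 6 were tested, 5 rose and none fell. They summed to 70.5, 47.2 and 131 CPM in cKO replicates 1 to 3 and 31.9 to 37.5 CPM in WT, with 1 marker at 0 in all WT libraries. Their part in the Gata2 value was not tested. In culture it was at 2.44, 1.58 and 1.12 CPM in KO and 1.77, 2.1 and 2.93 CPM in WT (-0.48, SE 0.33, 95% interval -1.16 to 0.20, adjusted p = 0.321), again overlapping. Gata3 (chromosome 2, 9857078 to 9887953) was at 1.12, 0.491 and 35.5 CPM in cKO and 0.653, 0.334 and 0.165 CPM in WT WAT. Its groups overlapped, since cKO replicate 2 was below WT replicate 1, and yet it was called, at 5.00 (SE 1.70, adjusted p = 0.0412). Without cKO replicate 3 the change was 1.06 (adjusted p = 0.282). Leaving out WT replicate 1 (adjusted p = 0.0956), 2 (0.133) or 3 (0.123) also ended the call, as did limma voom (3.01, adjusted p = 0.384), while DESeq2 gave it no adjusted p. Gata3 is also known from T cells and innate lymphoid cells, whose 10 markers, 2 of them higher and none at 0, summed to 115, 71.2 and 77.9 CPM in cKO and 68.6, 62.3 and 87.0 CPM in WT. The part of these cells in the Gata3 value was not tested. Cultures held 0, 0 and 4 Gata3 counts in KO and 2, 2 and 2 in WT, too few to test.

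Sox9, known for cartilage and for progenitors of several tissues (chromosome 11, 112782210 to 112787757), was at 1.55, 0.491 and 22.3 CPM in cKO and 1.13, 0.334 and 0.289 CPM in WT WAT. As with Gata3, cKO replicate 3 was high and the other 5 libraries were near or below 1.55 CPM. The change of 3.79 did not pass (SE 1.42, 95% interval 0.45 to 7.13, adjusted p = 0.0577), and without that library it was 0.79 (adjusted p = 0.456). It was called in 5 of 18 alternatives, all with cKO replicate 3 kept: library size only (4.50, adjusted p = 0.0311), DESeq2 (3.74, adjusted p = 0.022), 1 fit over all 4 groups (3.83, adjusted p = 0.00814), and the omission of cKO replicate 1 (4.25, adjusted p = 0.0489) or 2 (4.32, adjusted p = 0.0191). In culture Sox9 was at 4.97, 5.76 and 8.43 CPM in KO and 8.45, 8.74 and 7.84 CPM in WT, where KO replicate 3 lay within the WT range (-0.36, SE 0.20, 95% interval -0.78 to 0.05, adjusted p = 0.210).

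**Figure D3:**
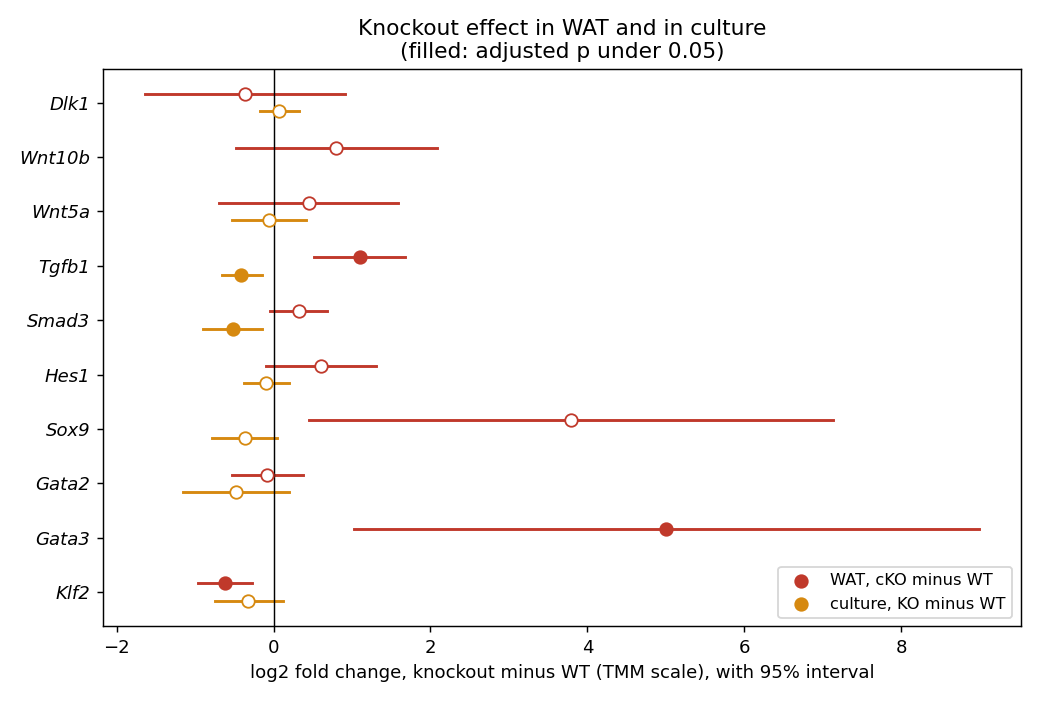
Log2 fold changes (knockout minus WT, TMM scale, horizontal axis) with 95% intervals for the 10 genes in WAT (red) and in culture (orange); filled points passed an adjusted p of 0.05. Tgfb1 is at 1.10 in WAT and -0.41 in culture, the WAT intervals of Gata3 and Sox9 span several units, and Wnt10b and Gata3 have no culture point because they were too low to test.

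The difference between the tissue and the culture effect was tested itself, as an interaction over all 12 libraries. This fit gave each gene 1 spread for tissue and culture together. The common spread between libraries (biological coefficient of variation) was 0.319 in WAT, 0.114 in culture and 0.227 in this fit. Its p-values and shares rest on that pooled spread. The difference passed for 3 of the 10 genes, Tgfb1, Smad3 and Sox9, each with the more positive effect in WAT. Of all 14463 genes 48.8% passed, with 27.7% of all in that direction. For Tgfb1 the WAT effect exceeded the culture effect by 1.54 (SE 0.30, adjusted p = 0.00101). It remained past the threshold in every alternative except the 2-fold minimum (adjusted p = 0.076), and was 1.39 without cKO replicate 3. For Smad3 the difference was 0.89 (SE 0.24, adjusted p = 0.00807), with the same exception (adjusted p = 0.896), and was 0.94 without that library. An estimate of 0.89 is below 2-fold and could not pass that minimum. Sox9 differed by 4.20 (SE 1.43, adjusted p = 0.027), but by 1.25 without cKO replicate 3 (adjusted p = 0.155), and limma voom gave 2.84 (adjusted p = 0.251). The Sox9 call was lost in 9 of 21 alternatives, and DESeq2 gave it no adjusted p. Hes1, at 0.72, did not pass (SE 0.33, adjusted p = 0.0881), nor did Klf2, at -0.26 (adjusted p = 0.366), which fell in WAT on the TMM scale and did not pass in culture, where its groups overlapped. The WAT and culture groups differ in age, cell composition and table, which cannot be told apart from the growth setting.

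Compared per kilobase of the longest GENCODE transcript, the order of the 10 genes differed between tissue and culture. In cKO WAT, Tgfb1 led at 60.3 ± 18.3 CPM per kilobase (mean ± SD, n = 3), followed by Klf2 at 29.5 ± 1.28, and in WT WAT Klf2 led at 45.3 ± 6.94, followed by Tgfb1 at 28.2 ± 4.31. The libraries of these neighbours did not overlap in either group, so cKO and WT WAT had these genes in opposite order. Smad3 and Hes1 came next in both, with overlapping levels of 12.7 ± 1.25 and 12.1 ± 2.82 in cKO and 10.2 ± 1.58 and 7.94 ± 2.89 in WT. Gata3 was the fifth in cKO WAT at 3.85 ± 6.24, a mean made by 1 library, and the ninth in WT at 0.119 ± 0.0771. Dlk1, counted without the row Dlk1-2, was lowest in both, at 0.0729 ± 0.0301 in cKO and 0.0941 ± 0.0296 in WT. In WT the libraries of Wnt10b, Sox9, Gata3 and Dlk1 overlapped between neighbours. The row Dlk1-2 was at 0.828, 0.292 and 0.496 CPM in WT replicates 1 to 3, so the WT rank of Dlk1 is uncertain.

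In culture the order of the upper 4 was the same in KO and WT, with no overlap between neighbours. Tgfb1 was highest at 52.3 ± 2.60 CPM per kilobase in KO and 69.3 ± 12.6 in WT. Hes1 followed at 14.6 ± 1.72 in KO and 15.4 ± 1.01 in WT, Dlk1 at 12.1 ± 0.345 in KO and 11.5 ± 1.55 in WT, and Klf2 at 2.64 ± 0.414 in KO and 3.33 ± 0.550 in WT. Wnt10b and Gata3 were lowest in both groups. Dlk1 was thus among the highest of the 10 in culture and among the lowest in WAT, and Klf2 and Smad3 stood higher in WAT. These levels come from tables normalized separately, so WAT and culture levels were not tested against each other.

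**Figure D4:**
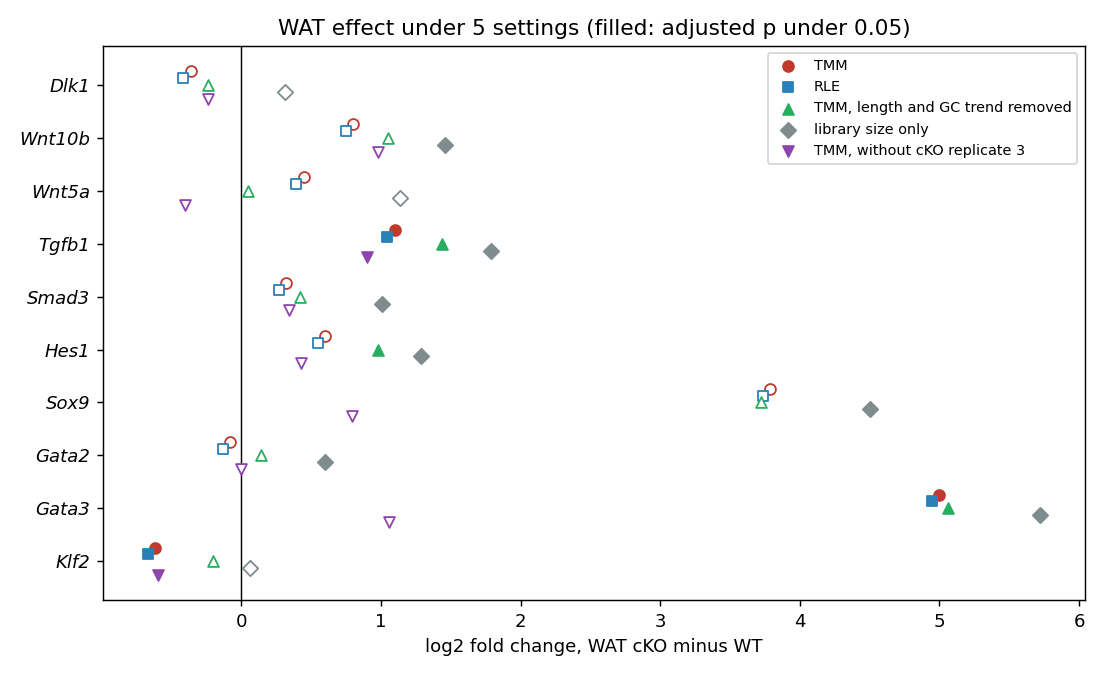
Log2 fold change of the 10 genes in WAT (cKO minus WT, horizontal axis) under TMM, RLE size factors, TMM with the length and GC trend removed, library size only, and TMM without cKO replicate 3; filled symbols passed an adjusted p of 0.05. Tgfb1 stays right of 0 and filled under all 5, Klf2 is at -0.62 under TMM and 0.06 by library size only, and Gata3 and Sox9 drop to 1.06 and 0.79 without cKO replicate 3.

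All 4 adipogenic factors listed as repressed by these genes were lower in cKO WAT, where 24.2% of all genes tested were lower. Cebpa was at 367, 641 and 343 CPM in cKO and 1672, 1587 and 1321 CPM in WT (-1.76, SE 0.28, adjusted p = 0.00225), and Pparg at 136, 170 and 105 CPM in cKO and 321, 352 and 298 CPM in WT (-1.24, SE 0.19, adjusted p = 0.00215). All cKO libraries of both genes were below WT, as for 29.3% of all genes tested. Cebpb fell by 1.69 on the log2 scale (SE 0.38, adjusted p = 0.00882) and Cebpd by 0.80 (SE 0.28, adjusted p = 0.0436), the last a call lost in 7 of 18 alternatives and with overlapping groups. Markers of mature adipocytes moved with them, with 7 of 10 lower, none higher and none at 0, at the sums given above. The macrophage markers moved the other way, with 12 of 12 higher. The part of these cell types in the fall was not tested. In culture Pparg was higher in KO, at 238, 233 and 225 CPM against 146, 151 and 189 CPM in WT (0.52, SE 0.11, adjusted p = 0.00317). Over all genes in culture, 8.94% were higher and 10.6% lower. Cebpb was lower, at 96.2, 98.8 and 20.3 CPM in KO and 208, 177 and 182 CPM in WT (-1.40, SE 0.29, adjusted p = 0.00198), with KO replicate 3 the lowest, and Cebpa (-0.36, adjusted p = 0.0392, a call lost in 8 of 18 alternatives) and Cebpd (-0.55, adjusted p = 0.00856) were lower as well. Of the adipocyte markers 9 were tested in culture, with 5 higher and 1 lower in KO, and their part in these changes was not tested.

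**Figure D5:**
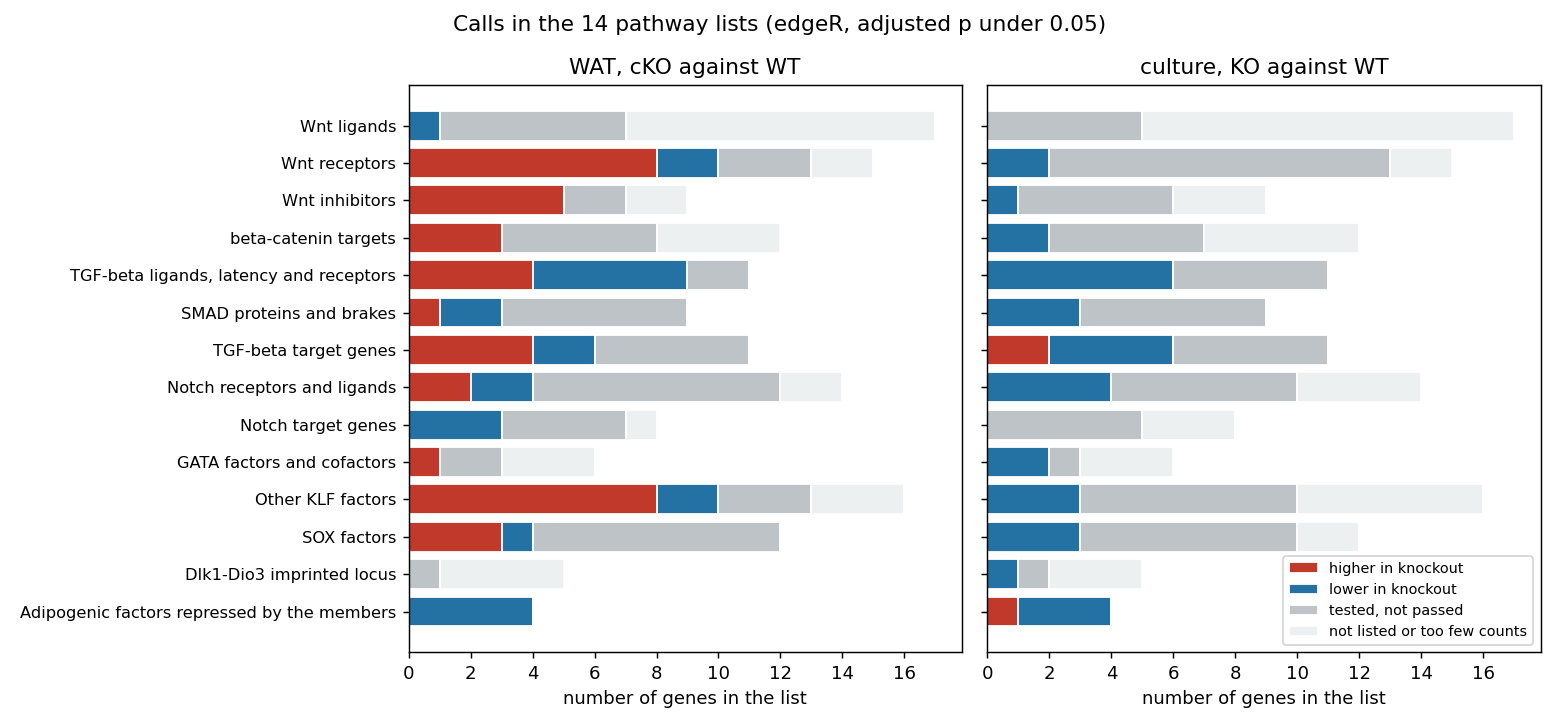
Number of genes in each of 14 lists called higher (red) or lower (blue) in the knockout, tested without a call (grey), or not listed or too low to test (pale), in WAT on the left and in culture on the right. Among the calls in WAT, those of WNT receptors, WNT inhibitors and other KLF factors are mostly red, whereas most calls in culture are blue. By library size only no WAT list but the last, with 3 lower, holds more than 1 lower call. With the length and GC trend removed, 3 of 13 other KLF factors were higher in WAT, beside 23.8% of all genes.

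The counts of the pathway lists in WAT stand beside 28.2% of all genes higher and 24.2% lower, or 54.2% and 8.76% by library size only, and those in culture beside 8.94% higher and 10.6% lower. Among the other genes of the WNT pathway in WAT, receptors and secreted inhibitors rose more often than they fell. Of 13 receptors tested 8 were higher and 2 lower in cKO (11 and 0 by library size only, 6 and 2 without cKO replicate 3). Fzd2, a Frizzled receptor, rose by 1.87 (SE 0.30, adjusted p = 0.00246), and Lrp5, the co-receptor of the beta-catenin branch, fell by 0.88 on the log2 scale (SE 0.13, adjusted p = 0.00171). Of 7 inhibitors 5 were higher and 0 lower, with a median of 1.73 for the list (7 and 0 by library size only), among them Sfrp2 at 9.87 ± 1.87 CPM in cKO and 2.96 ± 0.948 CPM in WT (1.73, adjusted p = 0.00375) and Sfrp4 (1.64, adjusted p = 0.00421), both secreted Frizzled-like proteins that bind WNT. Other WNT ligands had 0 higher and 1 lower of 7 tested, Wnt9a (-1.21, adjusted p = 0.0433), which was lost in 11 of 18 alternatives. Of 8 beta-catenin targets 3 were higher and 0 lower (3 and 0 by library size only, 2 and 0 without cKO replicate 3). The median of this list was 0.02, beside 0.12 for all genes. Ccnd1, the cyclin D1 gene, was at 92.6 ± 28.0 CPM in cKO and 33.2 ± 2.73 CPM in WT (1.48, adjusted p = 0.0021). Ccn4, a matricellular target, was at 0.929, 1.38 and 1.29 CPM in cKO and 0.261, 0 and 0.165 CPM in WT (3.05, adjusted p = 0.0183). Markers of progenitors and fibroblasts moved in the same libraries, with 8 of 12 higher, none lower, none at 0, and sums of 1523 to 2316 CPM in cKO and 692 to 759 CPM in WT. Their part in these changes was not tested.

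In culture the WNT lists had few calls, all of them lower in KO. Receptors gave 0 higher and 2 lower of 13, Ror2, a receptor for WNT5A (-0.85, SE 0.18, adjusted p = 0.00258), and Fzd1 (-0.42, adjusted p = 0.0339), the last lost in 8 of 18 alternatives. Sfrp2 was the inhibitor called, 1 of 6, at 59.7 ± 2.51 CPM in KO and 86.9 ± 3.72 CPM in WT (-0.54, adjusted p = 0.00164). Ccnd1 fell to 22.5 ± 0.745 CPM in KO, against 33.0 ± 3.19 CPM in WT (-0.55, adjusted p = 0.00495), and Notum, a WNT-inactivating esterase gene read at about 1 CPM, was the other of 2 lower targets among 7 (-1.16, adjusted p = 0.0338), a call lost in 9 of 18 alternatives. No other WNT ligand of 5 tested was called. With the length and GC trend removed, 1 ligand and 1 receptor were called higher.

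Around Tgfb1 and Smad3 in WAT, calls went both ways, and the 3 of 9 SMAD genes called are below the 52.4% of all genes. Of 11 other ligands, latency proteins and receptors 4 were higher and 5 lower (6 and 1 by library size only, 3 and 4 without cKO replicate 3). Tgfbr1, the type I receptor, was at 28.0 ± 7.38 CPM in cKO and 9.03 ± 0.328 CPM in WT (1.63, SE 0.22, adjusted p = 0.00136), whereas Ltbp2, a matrix protein of the latent TGF-beta binding family, was at 12.7 ± 5.27 CPM in cKO and 69.5 ± 16.1 CPM in WT (-2.46, SE 0.36, adjusted p = 0.00171). SMAD proteins and their brakes had 1 higher and 2 lower of 9 (7 and 0 by library size only), with the corepressor Tgif1 up by 2.27 (SE 0.30, adjusted p = 0.00122) and the ubiquitin ligase Smurf1 down to 51.6 ± 2.00 CPM in cKO, against 104 ± 19.5 CPM in WT (-1.01, adjusted p = 0.00211). Of 11 TGF-beta target genes 4 were higher and 2 lower (8 and 0 by library size only). Fn1, the fibronectin gene, was at 247 ± 64.6 CPM in cKO and 48.6 ± 16.8 CPM in WT (2.35, adjusted p = 0.00122), and Col1a1, a chain of collagen I, at 1929 ± 616 CPM in cKO and 528 ± 112 CPM in WT (1.87, adjusted p = 0.00232). The progenitor and fibroblast markers, 8 of 12 higher at 1523 to 2316 CPM in cKO and 692 to 759 CPM in WT, and the macrophage markers rose in the same libraries, and their part in these rises was not tested.

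In culture the same lists leaned down in KO. Of the 11 ligands, latency proteins and receptors 6 were lower and 0 higher (3 and 0 after removal of the length and GC trend), of the 9 SMAD proteins and brakes 3 were lower and 0 higher, and of the 11 targets 4 were lower and 2 higher. Eng, an accessory receptor, fell to 63.2 ± 2.49 CPM in KO, against 95.2 ± 19.9 CPM in WT (-0.59, adjusted p = 0.00315), and Smad7, the inhibitory SMAD, to 24.0 ± 1.30 CPM in KO, against 36.3 ± 3.10 CPM in WT (-0.60, adjusted p = 0.00236). Ltbp4 (-0.55, adjusted p = 0.00565) and Ski, a SMAD corepressor (-0.50, adjusted p = 0.00647), were lower too, and neither passed after removal of the length and GC trend. Fn1 was at 1201, 1232 and 1974 CPM in KO and 2896, 3208 and 2444 CPM in WT (-0.96, adjusted p = 2.3e-04), and Col1a1 fell by 0.71 on the log2 scale (adjusted p = 0.00155). Fn1 and Col1a1 thus went up in cKO WAT and down in KO cultures. Progenitor and fibroblast markers in culture, with 1 higher and 3 lower of 10 tested and none at 0, summed to 2160 to 2594 CPM in KO and 2626 to 2796 CPM in WT, and their part was not tested.

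Notch genes split in WAT, with 4 of 12 receptors, ligands and partners called, again below the share of all genes. Receptors, ligands and nuclear partners had 2 higher and 2 lower of 12 (10 and 0 by library size only), with Rbpj, the DNA-binding partner of Notch, at 102 ± 22.9 CPM in cKO and 32.7 ± 3.37 CPM in WT (1.63, SE 0.19, adjusted p = 9.2e-04), and the coactivator Maml2 up by 1.05 (SE 0.22, adjusted p = 0.00691). The list of targets other than Hes1 had 0 higher and 3 lower of 7. It had 3 higher and 0 lower by library size only, and 0 higher and 1 lower after removal of the length and GC trend. The lower genes of this list included Heyl (-1.07, SE 0.29, adjusted p = 0.0189) and Hes6, a HES family gene (-0.92, SE 0.19, adjusted p = 0.00643). Whether Notch induces Hes6 was not tested. In culture 4 of 10 receptors, ligands and partners were lower and 0 higher, a count of 1 with the length and GC trend removed. Notch1 fell to 20.2 ± 1.98 CPM in KO, against 31.3 ± 3.87 CPM in WT (-0.63, adjusted p = 0.00305), and Maml1 by 0.49 on the log2 scale (adjusted p = 0.0164), and both calls were lost with that correction. None of 5 targets was called in culture.

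Of the relatives of the nuclear factors, 8 of 13 other KLF genes were higher and 2 lower in cKO WAT (9 and 1 by library size only, 3 and 1 after removal of the length and GC trend, 4 and 2 without cKO replicate 3). After removal of that trend 23.8% of all genes were higher, so 3 of 13 is near the share of all genes. Without cKO replicate 3, 23.1% of all genes were higher. Klf6 was at 78.8 ± 13.9 CPM in cKO and 26.3 ± 2.69 CPM in WT (1.58, SE 0.17, adjusted p = 7.4e-04), and Klf3, known to repress adipogenesis, at 47.5 ± 6.95 CPM in cKO and 23.8 ± 1.26 CPM in WT (1.00, SE 0.14, adjusted p = 0.00163). SOX genes had 3 higher and 1 lower of 12 (8 and 1 by library size only), on the TMM scale below the shares of all genes, with Sox4 up by 2.08 (SE 0.29, adjusted p = 0.00144) and Sox6 down to 10.1 ± 4.15 CPM in cKO, against 29.6 ± 2.85 CPM in WT (-1.56, adjusted p = 0.00396). Zfpm2, also called Fog2, a GATA cofactor, was the 1 of 3 GATA-related genes called, at 3.29 ± 0.501 CPM in cKO and 0.828 ± 0.369 CPM in WT (1.98, adjusted p = 0.00652). In culture all calls of these lists were lower in KO, with 3 of 10 KLF, 3 of 10 SOX and 2 of 3 GATA-related genes, 1 of the last after removal of that trend, when 1 KLF gene was called higher. They included Klf16 (-0.86, adjusted p = 0.00476), Klf13 (-0.73, adjusted p = 0.0187), Sox18 (-0.65, adjusted p = 0.00213), Sox7 (-1.19, adjusted p = 0.00364), Zfpm1 (-0.41, adjusted p = 0.018) and Zfpm2 (-0.80, adjusted p = 0.0359). Sox7 and Sox18 are known from endothelium, whose markers had 3 of 10 lower, none higher and none at 0, and summed to 278 to 322 CPM in KO and 358 to 448 CPM in WT cultures. Their part was not tested.

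Dlk1 lies in an imprinted cluster whose other end holds Dio3, the gene of a deiodinase that inactivates thyroid hormone. Dio3 was at 37.6, 40.8 and 37.5 CPM in KO cultures and 59.5, 68.4 and 60 CPM in WT cultures (-0.70, SE 0.11, adjusted p = 2.8e-04), below WT in all 3, while Dlk1 in these libraries did not pass. In WAT the 1 other gene of the cluster with enough counts did not pass.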

How the data were processed

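Per the labels' protocols, RNA was taken up in TRIzol and an MGIEasy kit for mRNA was used to make libraries. The authors deposited 1 table of raw counts for WAT and 1 for cultures, with whole values and unequal totals, so without normalization. FastQC 0.11.2, cutadapt 1.11, HISAT2 2.1.0 and the build GRCm38 are named in the submitters' processing notes without their roles. Which tool counted the reads, on which annotation and strand, is not given in the sources used here, so reads of overlapping, antisense or near-identical genes are uncertain. Groups were taken from the sample titles, and all sample columns were used. No pair of libraries agreed within sampling noise.

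WAT and culture were fitted apart, 6 libraries and the whole table each, after filterByExpr (minimum count 10) and TMM scaling, with edgeR 4.0.16 (quasi-likelihood test, R 4.3.3). The interaction was fitted on all 12 libraries and the features listed in both tables. Every adjusted p without another tool named comes from this test. The SE is the log2 fold change divided by the square root of F. Alternatives were RLE factors, library size only, no count filter, a replicate block, DESeq2 1.42.0, limma 3.58.1 voom, a 2-fold minimum, removal of a trend with transcript length and GC content, summed numbered copies, unnamed loci left out, 1 fit over 4 groups, thinning to the smallest total, and each library left out. The culture features held 0 unnamed loci and 0 numbered copies. Summing copies or leaving out unnamed loci therefore repeated the main culture fit and could not change a culture call. Transcript length and GC content were known for 87.0% of WAT genes tested, 99.2% in culture and 99.4% for the interaction. The tests were tried on simulated counts with known changes.

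The 10 genes, the pathway lists and the marker lists were chosen with earlier results of these data known. All 10 genes are named, with the 2 smallest p among called genes of each pathway list and the 2 most abundant genes of a marker list. Fam50a is named as the check of the labels. Coordinates and promoters are from RefSeq, transcript lengths from GENCODE.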

Additional observations from a re-analysis of the deposited data

Results flagged for a closer look

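For 3 of the 10 genes the knockout effect in WAT differed from that in culture by the interaction test of edgeR, beside 48.8% of 14463 genes tested, 27.7% with the more positive effect in WAT. The WAT effect of Tgfb1 was larger by 1.54 (SE 0.30, adjusted p = 0.00101), with all 3 cKO tissues above WT and all 3 KO cultures below WT. That of Smad3 was larger by 0.89 (SE 0.24, adjusted p = 0.00807), with cKO tissues above and KO cultures below WT in 3 of 3 libraries each. Groups lay apart in the same way for 35.1% of all genes in WAT and 18.8% in culture. The WAT effect of Sox9 was larger by 4.20 (SE 1.43, adjusted p = 0.027), a value that rested on cKO replicate 3 and was 1.25 without it (adjusted p = 0.155). The Sox9 call was lost in 9 of 21 alternatives.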

How the results depend on the processing

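With 3 libraries a group, changes near the threshold depend on single libraries, and the low counts of Dlk1, Wnt10b, Gata3 and Sox9 limit what depth can show. In WAT, library size only gave 7 of the 10 genes changed, 7 higher and 0 lower (54.2% and 8.76% of all genes), and Dlk1 (0.31), Gata2 (0.60), Klf2 (0.06) and Fam50a (0.09) turned upward. In that setting the interaction called 5 genes, 5 of them higher (50.7% of all genes), with Dlk1 at 0.24 and Klf2 at 0.38. The 2-fold minimum left 0 genes changed in WAT, 0 higher and 0 lower, 0 changed and 0 lower in culture, and 0 changed and 0 higher for the interaction. It called 7.89% of all genes higher and 5.00% lower in WAT, and 9.35% higher for the interaction. In culture it called only 0.0238% higher and 0.0318% lower, so a count of 0 says little there. Estimates below 2-fold, such as those of Tgfb1 and Smad3 in culture and Klf2 in WAT, could not pass it. With the length and GC trend removed, 0 genes were lower in WAT, and 1 was higher and 1 lower in culture. Gata2 in WAT (0.14), Wnt5a in culture (0.03) and the Klf2 interaction (0.03) then turned. In 1 fit over all 4 groups, 5 genes changed in WAT, 4 of them higher, and 0 changed in culture, 0 of them lower. That fit called 35.7% of all genes higher and 26.6% lower in WAT, but 0.401% and 0.608% in culture. limma voom called 1 gene higher in WAT, beside 28.0% of all genes. DESeq2 called 1 gene in culture, 1 of them lower, and so did thinning, with 1 changed and 1 lower. Of all genes, 9.84% were lower with DESeq2 and 9.49% with thinning. With the replicate block, 1 gene was higher in WAT, beside 23.1% of all genes, and Gata3 was at 2.62 (adjusted p = 0.233). Same-numbered libraries correlated at -0.33, 0.03 and -0.23 in WAT. In culture they did at 0.18, 0.03 and 0.24, above 0.1 in 2 of 3 pairs, and not every library correlated best with its own number, so the numbers were not taken as pairs. The block raised the calls over all genes in culture to 14.4% higher and 16% lower, against 8.94% and 10.6% without it. With it Tgfb1 was at -0.39 (adjusted p = 0.00354) and Smad3 at -0.54 (adjusted p = 0.0128) in culture. Leaving out 1 library at a time gave 2 to 4 genes changed in WAT, 1 to 3 higher and 1 to 1 lower, 0 to 1 changed and 0 to 1 lower in culture, and 2 to 5 changed and 2 to 5 higher for the interaction. Of all genes, these omissions called 20.4% to 26.3% higher and 18.3% to 25.3% lower in WAT. In culture they called 3.13% to 13.5% higher and 3.91% to 13.2% lower, and for the interaction 23.1% to 29.8% higher. Over these omissions Wnt5a ran from -0.40 to 0.75 in WAT and from -0.26 to 0.89 for the interaction, both lowest without cKO replicate 3. In culture Wnt5a ran from -0.25 to 0.08, above 0 without WT replicate 3 or KO replicate 2 (0.04), and Dlk1 from -0.01 without WT replicate 3 to 0.19. Over all results and settings, 1267 values kept direction and side of the threshold, 176 lost it, 20 gained it and 14 turned. The values kept include those of settings that repeat the main fit in culture. The cause of these shifts was not tested.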

Other observations

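Markers of 5 further cell types were summed in WAT. Schwann cell markers, with 5 of 8 higher and none lower, summed to 949 to 1009 CPM in cKO and 270 to 910 CPM in WT. Mural and smooth muscle markers, with 1 of 8 lower, summed to 493 to 683 CPM in cKO and 572 to 704 CPM in WT. B cell markers, with 1 of 4 tested higher, summed to 4.42 to 8.11 CPM in cKO and 3.8 to 4.53 CPM in WT. Skeletal muscle markers varied within both groups, at 1251, 243 and 44.6 CPM in cKO replicates 1 to 3 and 31.9, 197 and 1627 CPM in WT replicates 1 to 3, with 1 of 6 called higher. Mesothelial markers, which share Krt19 with the epithelial list, summed to 2.12, 1.79 and 268 CPM in cKO and 22.0, 9.81 and 5.58 CPM in WT, with 1 of 2 tested lower.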
